A study of Mus musculus with 2 samples.

Results

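The genes described here are 10 regulators of conventional dendritic cell identity and subset choice that lie outside the interferon regulatory factor and basic helix-loop-helix families. They were chosen by symbol and are Zbtb46, Batf3, Batf, Nfil3, Spi1, Etv6, Bcl6, Zfp366, Ikzf1 and Cbfa2t3. All 10 symbols were found in both count matrices, among 31053 listed genes.

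Conventional dendritic cells (cDC) carry antigen to T cells and come in a pair of main subsets, cDC1, which serve CD8 T cells, and cDC2, which serve mostly CD4 T cells. Each subset is set up by transcription factors that act in combination: PU.1 (Spi1) and Ikaros (Ikzf1) open the haematopoietic program, ZBTB46 marks the committed cDC lineage, and BATF3, NFIL3 and BCL6 are needed in mice for normal cDC1 numbers. On contact with danger signals, or at steady state without them, both subsets can turn into mature Ccr7+ cells that move towards T cell zones.

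The study asked how the cDC1 and cDC2 of the spleen compare in gene expression between cells that descend from Il7r-expressing ancestors and cells that do not. Naive mice carrying Il7r-cre and Rosa26-lsl-tdTomato, aged 7 to 9 weeks, gave CD11c-enriched spleen cells that were sorted into tdTomato-positive cells (L-cDC) and tdTomato-negative cells (M-cDC). All cells of both groups carry both alleles, no group was treated, and the red label reports that Il7r was once expressed in the cell or an ancestor, not that it is expressed now. One droplet library was made from each group, and the number of mice behind each library, or their pooling, is not given in the sources used here. With 1 library per group there is no replicate, so no test was possible, and every interval below covers counting error in these libraries only.

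The deposited matrices held 4939 barcodes and 40170515 UMIs (unique molecular identifiers, each a counted transcript) for L-cDC, and 6674 barcodes and 52973960 UMIs for M-cDC. After filtering, 3943 L-cDC cells and 5600 M-cDC cells remained, and 4 of their barcodes were in both libraries. They fell into 22 clusters, formed without the 10 factors. Markers named a mature Ccr7+ DC-like class (2446 L-cDC and 2847 M-cDC cells), a cDC1-like class (209 and 726) and a cDC2-like class (153 and 934), and in each class at least 19 of its own 20 or 21 markers were detected in both libraries. Of the cDC2-like cells, 88 L-cDC and 722 M-cDC cells were in cluster 5, marked by Ffar2, and 65 L-cDC and 212 M-cDC cells in cluster 14, marked by Mgl2. Most mature L-cDC cells were in clusters 0, 10, 4 and 3, and most mature M-cDC cells in clusters 4, 10, 0 and 9. Against their cDC label, 198 L-cDC cells were NK-like and 53 were B-like, compared with 1 and 0 M-cDC cells.

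None of the considered factors differed by 1.5-fold between L-cDC and M-cDC in any of the 3 classes, whereas Ikzf1, Etv6, Batf3, Bcl6, Zfp366, Spi1 and Zbtb46 each passed 1.5-fold in at least 1 comparison between classes. The same held for genes at large, of which 1.12% to 8.61% passed 1.5-fold between origins and 30.3% to 61.4% between classes. Zbtb46 passed only in mature over cDC2-like cells of M-cDC, and not without the mature clusters low in the RNA Malat1. Levels are given as CPM, UMIs per 1000000 UMIs of the summed class and library, and a gene was considered in a comparison at 20 CPM or more in the higher sum and 50 UMIs or more over both. Because the kit counts 3′ tags, CPM values set one library or class against another for the same gene, and no gene is ranked against another by them. The plot of levels by class and library shows all 10 factors.

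**Figure D1:**
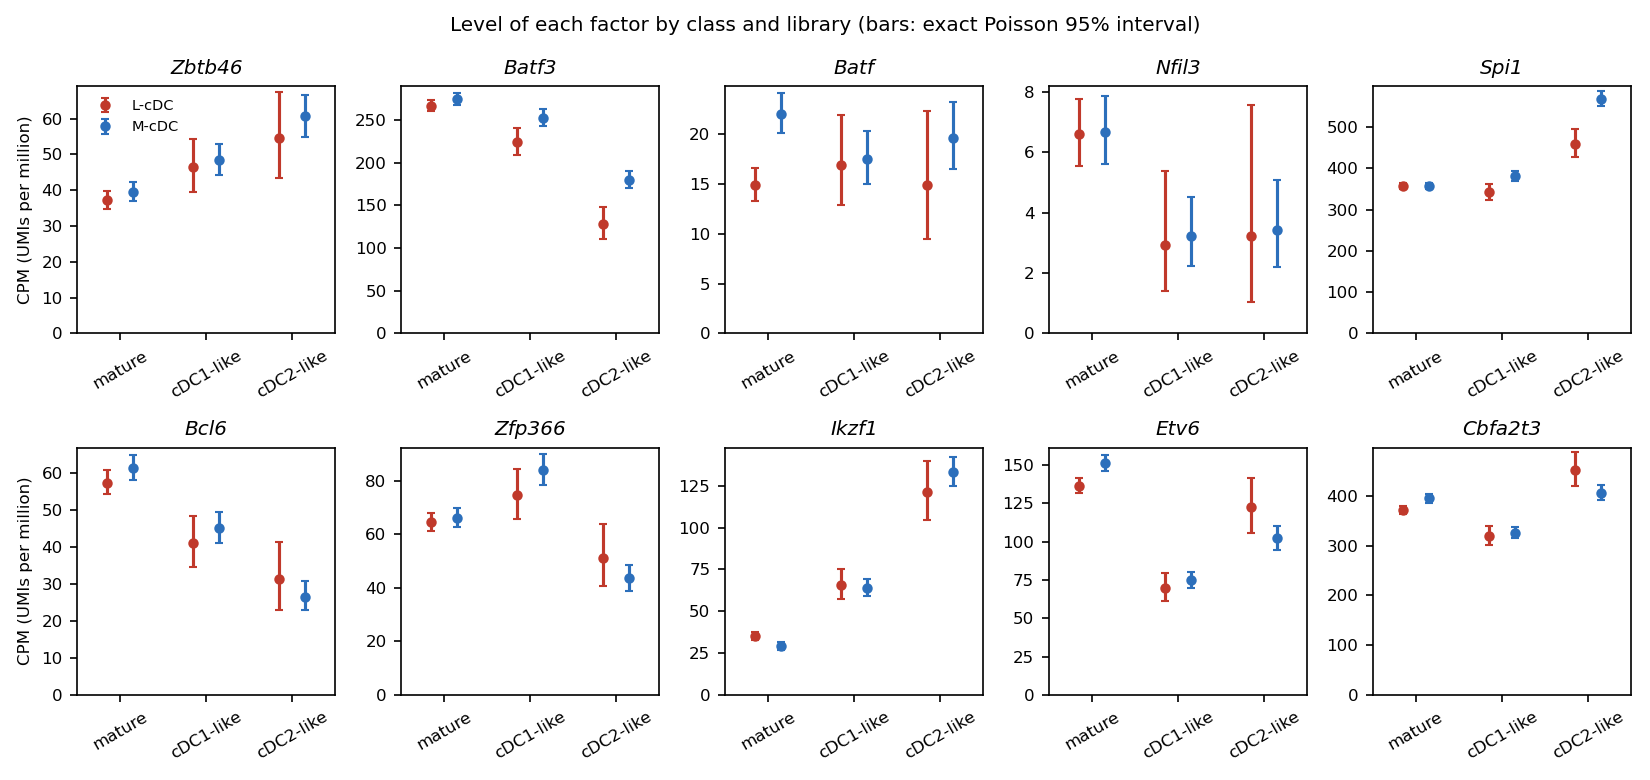
CPM of each factor (y axis, from 0) in mature, cDC1-like and cDC2-like cells (x axis), with L-cDC in red left of M-cDC in blue; points are summed UMIs of a class and library, and bars are exact Poisson 95% intervals. Ikzf1 was lowest in mature cells, at 35.1 CPM in L-cDC and 29.3 in M-cDC, and highest in cDC2-like cells, at 121 CPM in L-cDC and 133 in M-cDC.

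Zbtb46, a BTB zinc finger repressor that separates committed cDC from other myeloid cells, was present in all 3 classes (chr2:181387762-181459426, minus strand, GRCm38). It stood at 37.2 CPM in L-cDC and 39.6 in M-cDC among mature cells, at 46.5 CPM in L-cDC and 48.5 in M-cDC among cDC1-like cells, and at 54.5 CPM in L-cDC and 60.6 in M-cDC among cDC2-like cells. L-cDC was the lower library in each class, with intervals that overlapped. Set over M-cDC, L-cDC had a ratio of 0.939 (95% interval 0.852 to 1.04) in mature, 0.960 (0.797 to 1.15) in cDC1-like and 0.899 (0.703 to 1.14) in cDC2-like cells. Mature cells were below cDC2-like cells in both libraries, at a ratio of 0.683 (0.545 to 0.865) in L-cDC and 0.654 (0.581 to 0.736) in M-cDC, and the M-cDC value is past 1.5-fold. Without the mature clusters low in the RNA Malat1, described below, the M-cDC ratio was 0.716 (0.636 to 0.807), short of 1.5-fold. Among the mature clusters Zbtb46 was highest in cluster 2, led by Dll4, Il12b and Il6, at 83.0 CPM in L-cDC and 76.7 in M-cDC, against 28.6 CPM in L-cDC and 34.8 in M-cDC in cluster 10, led by Pla2g7. A small gene model, Gm22708, overlaps Zbtb46 on the same strand, so reads could be shared between them.

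The share of cells with a Zbtb46 UMI depends on depth and on free RNA in the droplets. Of cDC1-like cells, 47.8% (exact Clopper-Pearson interval 40.9 to 54.8) in L-cDC and 47.4% (43.7 to 51.1) in M-cDC had at least 1 UMI, at median depths of 16075 and 14151 UMIs. In NK-like L-cDC cells, which should lack the gene, 6.06% (3.17 to 10.3) had 1 at a median depth of 8130.5 UMIs, and in B-like L-cDC cells it was 13.2% (5.48 to 25.3) at 6240 UMIs. With each cell thinned to 3000 UMIs, which left out 8 shallower M-cDC cells, the shares of cDC1-like cells were 14.4% (9.90 to 19.9) in L-cDC and 13% (10.6 to 15.6) in M-cDC, against 0.505% (0.0128 to 2.78) of NK-like cells. Thinned shares of cDC1-like cells for Batf3 were 46.4% (39.5 to 53.4) in L-cDC and 55.2% (51.4 to 58.8) in M-cDC, against 5.56% (2.81 to 9.72) of NK-like cells. B-like L-cDC cells, of which 1 was too shallow to thin, had thinned shares of 9.62% (3.20 to 21.0) for Zbtb46 and 21.2% (11.1 to 34.7) for Batf3. In L-cDC the Batf3 share of cDC1-like cells lay above both lymphocyte classes, while that of Zbtb46 lay above NK-like cells and overlapped B-like cells. M-cDC held too few lymphocytes for the same comparison.

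Batf3, the AP-1 family factor that pairs with IRF8 and is required for cDC1 in mice (chr1:191097847-191108945, plus strand), was highest in mature and cDC1-like cells and lowest in cDC2-like cells. It stood at 267 CPM in L-cDC and 274 in M-cDC among mature cells, at 225 CPM in L-cDC and 253 in M-cDC among cDC1-like cells, and at 128 CPM in L-cDC and 180 in M-cDC among cDC2-like cells. The cDC1-like over cDC2-like ratio was 1.75 (1.49 to 2.05) in L-cDC, past 1.5-fold, and 1.40 (1.31 to 1.5) in M-cDC. The mature over cDC2-like ratio was past 1.5-fold in both, at 2.08 (1.80 to 2.41) in L-cDC and 1.52 (1.43 to 1.62) in M-cDC.

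Of the 3 classes, the gap between origins for Batf3 was widest in cDC2-like cells, where L-cDC over M-cDC was 0.713 (0.611 to 0.829), short of 1.5-fold. Cluster 14 had the wider gap of its pair of clusters, at 84.4 CPM in L-cDC and 146 in M-cDC, a ratio of 0.580 (0.439 to 0.755), while cluster 5 stood at 178 CPM in L-cDC and 194 in M-cDC, a ratio of 0.918 with an interval that holds 1. Cluster 11, left unnamed and led by Cd209d and by Siglech and Tcf4, known from plasmacytoid dendritic cells, was lower still, at 44.4 CPM in L-cDC and 82.5 in M-cDC, a ratio of 0.538 (0.418 to 0.693). In that cluster 1 of 9 considered factors passed 1.5-fold between origins, as did 10.9% of all considered genes, and in cluster 14 it was 1 of 8, beside 17.8%. Set against the whole cDC2-like class, cluster 11 was lower past 1.5-fold in Batf3 and Zfp366 in L-cDC (2 of 8 factors, beside 23.4% of genes) and in Batf3 and Zbtb46 in M-cDC (2 of 9, beside 22.1%). So Batf3 was lower in L-cDC in clusters 14 and 11, with 65 and 210 L-cDC cells behind the values. L-cDC was also lower in mature clusters 2, at a ratio of 0.654 (0.482 to 0.885), and 10, at 0.911 (0.846 to 0.981). In mature clusters 0 and 4 the interval held 1. In the cDC1-like class the ratio was 0.888 (0.818 to 0.963). Under the alternatives tried, the log2 ratio in the whole cDC2-like class lay between -0.63 (past 1.5-fold, at a finer clustering) and -0.14 (with doublet-like cells kept), against -0.49 as given above.

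Batf, a close relative of Batf3 that can stand in for it in mice (chr12:85686669-85709087, plus strand), was sparse, at 14.9 CPM in L-cDC and 22.0 in M-cDC among mature cells. Among cDC1-like cells it stood at 17.0 CPM in L-cDC and 17.5 in M-cDC, and among cDC2-like cells at 14.9 CPM in L-cDC and 19.7 in M-cDC. The mature ratio of L-cDC over M-cDC, 0.675 (0.584 to 0.780), was the furthest from 1 of any considered factor and class, just short of 1.5-fold.

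Batf was spread unevenly over the mature clusters, which the libraries fill differently. It was at 28.2 CPM in L-cDC and 31.4 in M-cDC in cluster 4 (led by Itgb8, with Aldh1a2), and at 6.43 CPM in L-cDC and 5.09 in M-cDC in cluster 10. The cluster 4 over cluster 10 ratio was 4.38 (2.89 to 6.87) in L-cDC and 6.16 (4.03 to 9.88) in M-cDC. Cluster 2 reached 56.5 CPM in L-cDC and 81.6 in M-cDC, a ratio to cluster 10 of 8.79 (5.10 to 15.2) in L-cDC and 16.0 (9.13 to 28.6) in M-cDC. In cluster 2 these were 32 UMIs in 15 of 67 L-cDC cells and 33 UMIs in 12 of 52 M-cDC cells, and 1 cell held 31.3% of them in L-cDC and 30.3% in M-cDC, so the intervals, which treat UMIs as independent, are too narrow. Cluster 2 over cluster 10 had 4 of 9 considered factors past 1.5-fold in each library, beside 42.1% of all considered genes in L-cDC and 44.7% in M-cDC. Batf and Zbtb46 were higher and Spi1 lower in both, Batf3 was lower in L-cDC, and Bcl6 in M-cDC had a ratio of 0.651 from 20 UMIs, with an interval of 0.393 to 1.02 that holds 1. Between origins cluster 2 had 1 of 8 factors past 1.5-fold, beside 11.7%, which was Batf3 at 152 CPM in L-cDC and 232 in M-cDC. Cluster 3 (led by Clu and Nrp2), which held 357 L-cDC cells and 1 M-cDC cell, was at 5.94 CPM in L-cDC. Cluster 4 in turn held 473 of the mature L-cDC cells and 986 of the mature M-cDC cells, and within it the intervals of L-cDC and M-cDC overlapped. Without cluster 3 the mature log2 ratio between L-cDC and M-cDC was -0.39, against -0.57 with it, and with cells classed one by one by their markers it was -0.63, past 1.5-fold. Outside the dendritic cells, NK-like L-cDC cells had 104 CPM (90.1 to 119) of Batf.

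Nfil3, a basic leucine zipper repressor needed for cDC1 and for NK cells in mice (chr13:52967209-52981073, minus strand), was near the limit of detection and never reached 20 CPM in a class. It stood at 6.60 CPM in L-cDC and 6.67 in M-cDC among mature cells (142 UMIs in each library), at 2.93 CPM in L-cDC and 3.23 in M-cDC among cDC1-like cells, and at 3.24 CPM in L-cDC and 3.42 in M-cDC among cDC2-like cells, the last from 5 and 24 UMIs. The mature over cDC1-like ratio was 2.26 (1.19 to 4.81) in L-cDC and 2.06 (1.41 to 3.11) in M-cDC. NK-like L-cDC cells were above the 3 dendritic classes, at 16.5 CPM (11.4 to 23.2).

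Spi1, which encodes the ETS factor PU.1 (chr2:91082390-91115756, plus strand), was highest in cDC2-like cells. It stood at 357 CPM in L-cDC and 357 in M-cDC among mature cells, at 343 CPM in L-cDC and 381 in M-cDC among cDC1-like cells, and at 459 CPM in L-cDC and 568 in M-cDC among cDC2-like cells. The libraries were level in mature cells, with a ratio of 0.999 (0.967 to 1.03), and L-cDC was lower in cDC1-like cells at 0.899 (0.841 to 0.960) and in cDC2-like cells at 0.809 (0.746 to 0.876). Inside the cDC2-like class the ratio was 0.938 (0.843 to 1.04) in cluster 5, with 1 in its interval, and 0.742 (0.650 to 0.844) in cluster 14. The mature over cDC2-like ratio was 0.777 (0.719 to 0.840) in L-cDC and 0.629 (0.605 to 0.654) in M-cDC, the second past 1.5-fold.

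Within the mature class Spi1 ran opposite to Batf. Cluster 4 had 246 CPM in L-cDC and 260 in M-cDC, against 503 CPM in L-cDC and 528 in M-cDC in cluster 10, a ratio of 0.488 (0.455 to 0.524) in L-cDC and 0.492 (0.465 to 0.522) in M-cDC. In this comparison of cluster 4 with cluster 10, 4 of 9 considered factors passed 1.5-fold in L-cDC, beside 38.5% of all considered genes, and 3 of 9 passed in M-cDC, beside 36.8%. Batf was higher and Spi1 and Ikzf1 lower in both libraries, and Zbtb46 was higher past 1.5-fold in L-cDC, at 44.0 CPM in cluster 4 and 28.6 CPM in cluster 10. NK-like L-cDC cells held 39.1 CPM of Spi1.

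Etv6, an ETS family repressor that supports cDC1 identity in mice (chr6:134035700-134270158, plus strand), was lowest in cDC1-like cells. It stood at 136 CPM in L-cDC and 151 in M-cDC among mature cells, at 69.9 CPM in L-cDC and 74.9 in M-cDC among cDC1-like cells, and at 123 CPM in L-cDC and 102 in M-cDC among cDC2-like cells. The mature over cDC1-like ratio was 1.95 (1.71 to 2.23) in L-cDC and 2.02 (1.87 to 2.19) in M-cDC, both past 1.5-fold. Malat1 and depth also differed between these classes, as given below. The cDC1-like over cDC2-like ratio was 0.570 (0.469 to 0.694) in L-cDC, past 1.5-fold, and 0.734 in M-cDC. By origin the small differences pointed opposite ways, with L-cDC over M-cDC at 0.901 (0.857 to 0.948) in mature and 1.2 (1.02 to 1.41) in cDC2-like cells. This ratio was 1.14 (0.894 to 1.44) in cluster 5 and 1.25 (0.978 to 1.59) in cluster 14. Inside mature clusters it was 0.908 (0.821 to 1.004) in cluster 0, 1.02 (0.935 to 1.11) in cluster 4 and 0.905 (0.810 to 1.01) in cluster 10. Each of these intervals held 1, from fewer UMIs than the class. In all but cluster 4 the ratio lay on the same side of 1 as its class. Mature cluster 3, nearly all L-cDC, had 100 CPM of Etv6. The gene is overlapped by Gm43982 and Gm43984 on its own strand and by Gm17088, Gm17089 and 1700051K13Rik on the other.

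Bcl6 and Ikzf1 separated mature from cDC2-like cells in opposite directions in both libraries, and their upstream sequences are printed as examples. Batf3 separated them as well, in the direction of Bcl6, and its sequence is not printed. Each line gives the 250 bases before a RefSeq start site on the gene's strand (GRCm38.p6), with the start site just past the 3′ end. Capitals mark matches to GAGGAA (an ETS core, or TTCCTC on the other strand), TTCNNNGAA (a STAT and BCL6 type site) or an ETS-IRF composite (GGAA and GAAA with 2 bases between them, or TTTC and TTCC on the other strand). The windows lie at chr16:23988853-23989102 and chr16:23981284-23981533 (minus strand) for Bcl6, and at chr11:11685675-11685924 and chr11:11689927-11690176 (plus strand) for Ikzf1.
Bcl6 window 1: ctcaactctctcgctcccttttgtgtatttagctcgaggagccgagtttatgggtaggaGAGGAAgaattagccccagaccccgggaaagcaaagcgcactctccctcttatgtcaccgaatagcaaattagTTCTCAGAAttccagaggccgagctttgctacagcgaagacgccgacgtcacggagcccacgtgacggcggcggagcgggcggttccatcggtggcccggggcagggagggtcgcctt
Bcl6 window 2: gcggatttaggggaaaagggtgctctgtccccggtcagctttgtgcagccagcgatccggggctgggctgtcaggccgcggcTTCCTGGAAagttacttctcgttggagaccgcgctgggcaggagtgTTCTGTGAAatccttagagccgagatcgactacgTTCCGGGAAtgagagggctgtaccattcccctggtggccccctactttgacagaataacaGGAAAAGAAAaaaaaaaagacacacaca
Ikzf1 window 1: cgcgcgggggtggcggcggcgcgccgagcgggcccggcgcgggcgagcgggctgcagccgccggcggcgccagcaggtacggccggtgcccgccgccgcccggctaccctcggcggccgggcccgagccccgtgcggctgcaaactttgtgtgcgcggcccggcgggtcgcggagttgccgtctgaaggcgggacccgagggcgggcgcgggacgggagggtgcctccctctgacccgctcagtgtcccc
Ikzf1 window 2: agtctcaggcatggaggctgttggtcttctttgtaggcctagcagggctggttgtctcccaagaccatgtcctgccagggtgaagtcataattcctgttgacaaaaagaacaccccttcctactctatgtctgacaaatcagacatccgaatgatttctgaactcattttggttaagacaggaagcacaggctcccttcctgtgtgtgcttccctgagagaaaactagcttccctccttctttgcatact

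The first Bcl6 window held 1 GAGGAA and 1 TTCNNNGAA match, and the second held 3 TTCNNNGAA matches and 1 ETS-IRF composite. Over all 32851 windows of this length, 23.3% held GAGGAA, 7.02% held TTCNNNGAA and 2.30% held the ETS-IRF composite on either strand. The Ikzf1 windows held none of them, nor TGANTCA (the AP-1 site, in 6.75% of windows) or TTANGTAA (an NFIL3 type site, in 2.06%). The Batf3 window, not printed, held 1 GAGGAA and 1 TTCNNNGAA match. RefSeq windows were matched for 8 of the 10 factors, all but Spi1 and Zfp366. A match describes letters and not binding.

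Bcl6, a BTB zinc finger repressor of germinal centre B cells that also supports cDC1 (chr16:23965052-23988852, minus strand), was highest in mature cells. It stood at 57.3 CPM in L-cDC and 61.3 in M-cDC among mature cells, at 41.0 CPM in L-cDC and 44.9 in M-cDC among cDC1-like cells, and at 31.1 CPM in L-cDC and 26.5 in M-cDC among cDC2-like cells. The 3 classes kept this order in both libraries. The mature over cDC2-like ratio was 1.84 (1.38 to 2.51) in L-cDC and 2.31 (1.98 to 2.71) in M-cDC, both past 1.5-fold. The cDC1-like over cDC2-like ratio was 1.31 (0.941 to 1.87) in L-cDC, with 1 inside its interval, and 1.69 (1.43 to 2.02) in M-cDC, past 1.5-fold. In macrophage-like cells it was at 0 UMIs in L-cDC and 1 UMI in M-cDC, from 51 and 25 cells. An antisense gene model, Gm37419, overlaps Bcl6.

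Zfp366, a zinc finger factor also known as DC-SCRIPT (chr13:99184823-99250656, plus strand), was highest in cDC1-like cells among the 3 classes. It stood at 64.6 CPM in L-cDC and 66.1 in M-cDC among mature cells, at 74.6 CPM in L-cDC and 84.0 in M-cDC among cDC1-like cells, and at 51.3 CPM in L-cDC and 43.5 in M-cDC among cDC2-like cells. The cDC1-like over cDC2-like ratio was 1.46 (1.13 to 1.90) in L-cDC and 1.93 (1.69 to 2.21) in M-cDC, the second past 1.5-fold. The mature over cDC1-like ratio was 0.866 (0.757 to 0.994) in L-cDC and 0.787 (0.722 to 0.858) in M-cDC. Without the mature clusters low in Malat1 it was 0.918 (0.803 to 1.05) in L-cDC, which holds 1, and 0.842 (0.772 to 0.918) in M-cDC. Cluster 3, the mature cluster of L-cDC, had 100.4 CPM (90.7 to 111) of Zfp366. That was above the L-cDC mature class as a whole and above L-cDC cDC1-like cells, at 74.6 CPM (65.7 to 84.3). NK-like L-cDC cells had 7.02 CPM.

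Ikzf1, which encodes Ikaros (chr11:11685003-11772926, plus strand), differed most between the classes. It stood at 35.1 CPM in L-cDC and 29.3 in M-cDC among mature cells, at 65.8 CPM in L-cDC and 63.9 in M-cDC among cDC1-like cells, and at 121 CPM in L-cDC and 133 in M-cDC among cDC2-like cells. The intervals of the 3 classes did not overlap in either library. The mature over cDC2-like ratio was 0.289 (0.246 to 0.341) in L-cDC and 0.220 (0.198 to 0.244) in M-cDC, the mature over cDC1-like ratio 0.533 (0.459 to 0.622) in L-cDC and 0.458 (0.410 to 0.512) in M-cDC, and the cDC1-like over cDC2-like ratio 0.542 (0.445 to 0.662) in L-cDC and 0.480 (0.433 to 0.531) in M-cDC. All of these are past 1.5-fold.

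Ikzf1 also differed inside the classes. Cluster 14 was below cluster 5, at 99.1 CPM against 146 CPM in L-cDC and at 86.6 CPM against 152 CPM in M-cDC. In this comparison within the cDC2-like class, 1 of 7 considered factors passed 1.5-fold in L-cDC (Batf3 lower) and 1 of 8 in M-cDC (Ikzf1 lower), beside 31.8% and 18.3% of all considered genes. Cluster 4 was below cluster 10, at 20.7 CPM against 46.9 CPM in L-cDC and at 19.6 CPM against 46.3 CPM in M-cDC. Cluster 11, led by Cd209d and Siglech, had 151 CPM in L-cDC and 172 in M-cDC, and lymphocytes were high as well, at 211 CPM in NK-like and 142 CPM in B-like L-cDC cells. By origin, mature L-cDC cells as a whole were above mature M-cDC cells at a ratio of 1.2 (1.08 to 1.33). Inside mature clusters the interval held 1, at 1.10 (0.911 to 1.34) in cluster 0, 1.06 (0.822 to 1.35) in cluster 4 and 1.01 (0.831 to 1.24) in cluster 10. Cluster 4, low in Ikzf1, held 473 L-cDC and 986 M-cDC cells. The part of this mix of clusters was not tested. In cluster 1, an unnamed cluster led by Ryr3 and Mdk, L-cDC was lower, at 79.8 CPM against 121 CPM in M-cDC, a ratio of 0.662 (0.524 to 0.833). That was 1 of 8 considered factors past 1.5-fold there, beside 18.5% of all considered genes. The antisense models Gm11999 and Gm12000 overlap Ikzf1.

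Cbfa2t3, a corepressor of the ETO family that favours plasmacytoid over conventional dendritic cells in mice (chr8:122625141-122699109, minus strand), stayed within 1.5-fold across the 3 classes. It stood at 372 CPM in L-cDC and 395 in M-cDC among mature cells, at 319 CPM in L-cDC and 326 in M-cDC among cDC1-like cells, and at 454 CPM in L-cDC and 407 in M-cDC among cDC2-like cells. No ratio between classes passed 1.5-fold, and those of cDC1-like over cDC2-like cells were 0.704 in L-cDC and 0.800 in M-cDC. L-cDC over M-cDC was 0.94 (0.912 to 0.969) in mature and 1.11 (1.02 to 1.21) in cDC2-like cells, and 1.24 (1.10 to 1.40) in cluster 14. Cluster 5 was level, at 414 CPM in L-cDC and 413 in M-cDC. Mature cluster 3, nearly all L-cDC, had 313 CPM. NK-like L-cDC cells had 37.6 CPM. Gm15899 overlaps the gene on its own strand, and Gm20388 and Gm10612 on the other.

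Between origins the count past 1.5-fold was 0 in each class. In mature cells 0 of 9 considered factors passed 1.5-fold between L-cDC and M-cDC, as did 1.79% of 4352 considered genes. In cDC1-like cells it was 0 of 8 and 1.12% of 4720 genes, and in cDC2-like cells 0 of 8 and 8.61% of 5320 genes. The factors' median log2 ratio was -0.09 in mature, -0.12 in cDC1-like and 0.01 in cDC2-like cells, and that of all considered genes -0.04, -0.08 and -0.06. With shares this low over all genes, counts of 0 among 8 or 9 say little about the factors themselves.

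**Figure D2:**
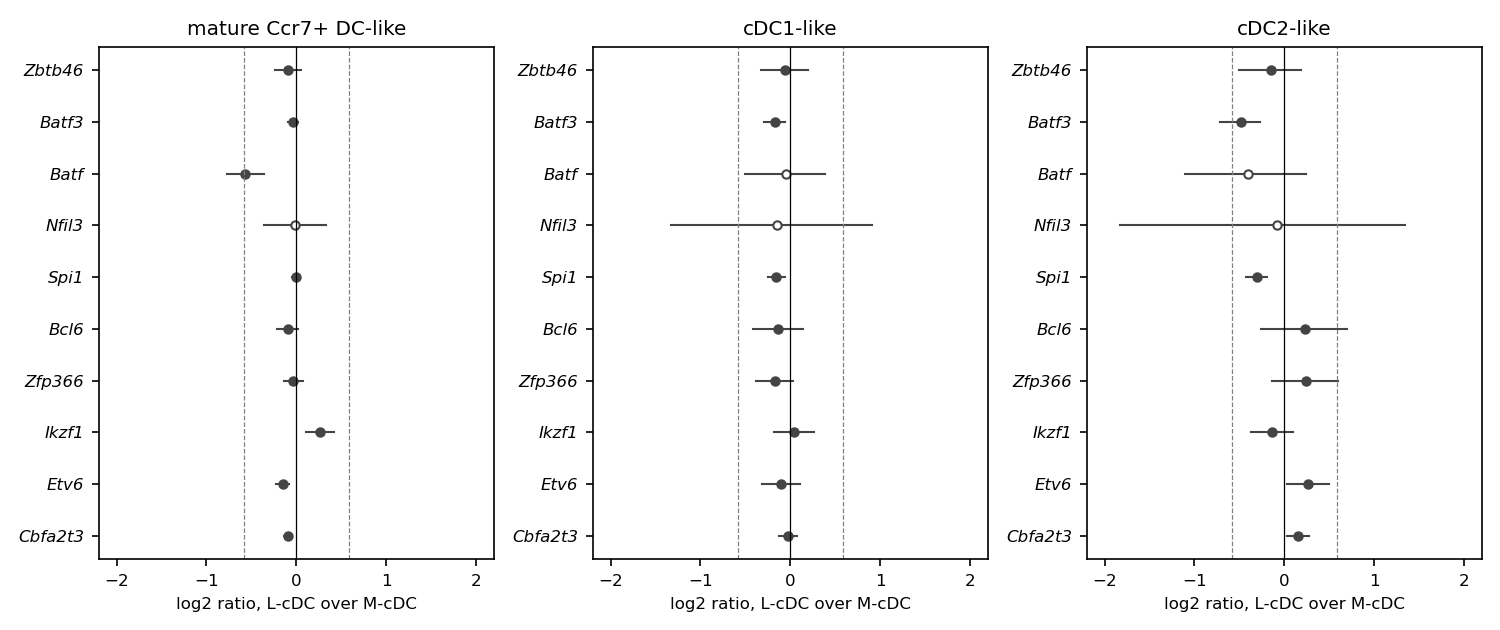
Log2 ratio of L-cDC over M-cDC for each factor (x axis) in mature, cDC1-like and cDC2-like cells, with exact conditional 95% intervals; dashed lines mark 1.5-fold and open circles mark factors below the minimum level. The points nearest to a dashed line are Batf in mature cells (ratio 0.675) and Batf3 in cDC2-like cells (ratio 0.713).

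Between classes at least 2 factors passed 1.5-fold in each comparison. The classes also differed in Malat1, at 86344 CPM in L-cDC and 94078 in M-cDC among mature cells. It was at 27812 and 29002 CPM in cDC1-like cells, and at 17733 and 20293 CPM in cDC2-like cells. Median depths were 8377 and 7102 UMIs in mature, 16075 and 14151 in cDC1-like, and 9323 and 7152.5 in cDC2-like cells. The part of Malat1 and depth in the ratios between classes was not tested. In cDC1-like over cDC2-like cells 3 of 8 passed 1.5-fold in L-cDC (Batf3 higher, Ikzf1 and Etv6 lower) and 3 of 8 in M-cDC (Bcl6 and Zfp366 higher, Ikzf1 lower), beside 36.7% and 30.3% of all considered genes. The median log2 ratio of the factors was -0.33 in L-cDC and -0.32 in M-cDC, and that of all genes -0.14 and -0.11. In mature over cDC1-like cells 2 of 8 passed in L-cDC and 2 of 9 passed in M-cDC, Etv6 higher and Ikzf1 lower in both, beside 60.0% and 61.4% of all genes. In mature over cDC2-like cells 3 of 8 passed in L-cDC (Batf3 and Bcl6 higher, Ikzf1 lower) and 6 of 9 in M-cDC (Batf3, Bcl6 and Zfp366 higher, Ikzf1, Spi1 and Zbtb46 lower), beside 56.5% and 60.0%. In M-cDC, Batf3, Zfp366 and Zbtb46 lay close to 1.5-fold, and 3 factors (Spi1, Bcl6 and Ikzf1) passed under 4 of the alternatives tried. The factors' medians in the mature comparisons were 0.14 in L-cDC and 0.12 in M-cDC over cDC1-like cells, with all genes at -0.11 and -0.16, and -0.07 in L-cDC and 0.16 in M-cDC over cDC2-like cells, with all genes at -0.28 and -0.32.

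**Figure D3:**
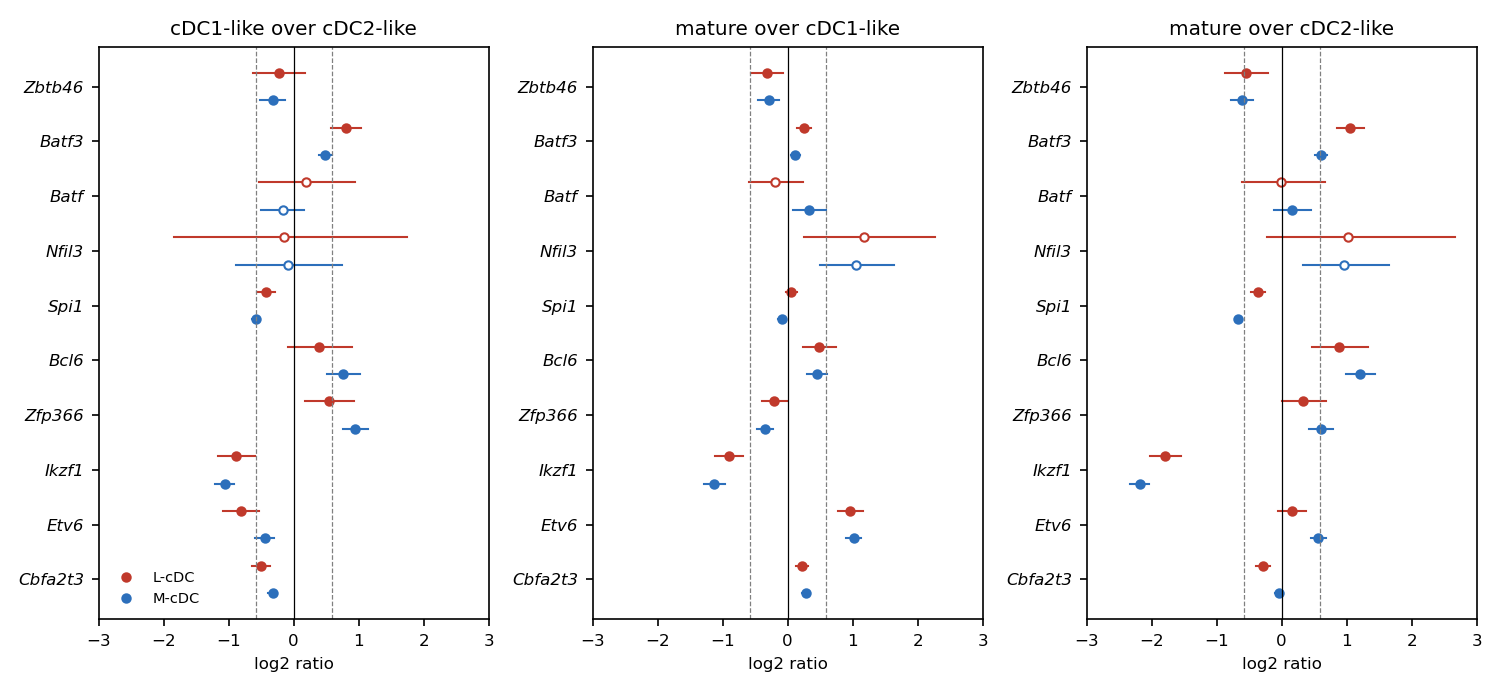
Log2 ratios between classes for each factor (x axis), with L-cDC in red above M-cDC in blue, exact conditional 95% intervals, dashed lines at 1.5-fold and open circles for factors below the minimum level. Ikzf1 lies left of the dashed line in all 3 panels, with mature over cDC2-like ratios of 0.289 in L-cDC and 0.220 in M-cDC.

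Clusters resolve the classes further. In the map of levels by cluster, the NK-like L-cDC cells were the highest for Batf, Nfil3 and Ikzf1 and the lowest for Zbtb46, Batf3, Spi1, Zfp366, Etv6 and Cbfa2t3 among 17 L-cDC clusters of at least 50 cells. Cluster 6 was the highest for Zbtb46, Bcl6, Zfp366, Etv6 and Cbfa2t3 in L-cDC, and for Bcl6, Etv6 and Cbfa2t3 among 16 such clusters in M-cDC. Cluster 6, left unnamed, had 317422 CPM of the nuclear RNA Malat1 in L-cDC and 335966 in M-cDC at median depths of 1966 and 1844.5 UMIs. In it Etv6 stood at 280 CPM in L-cDC and 329 in M-cDC, Zbtb46 at 154 CPM in L-cDC and 51.9 in M-cDC, and Cbfa2t3 at 532 CPM in L-cDC and 496 in M-cDC. The Zbtb46 ratio of L-cDC over M-cDC there was 2.96 (1.46 to 6.77), 1 of 7 considered factors past 1.5-fold beside 14.2% of all considered genes. It rests on 63 UMIs in L-cDC and only 9 UMIs, in 9 of 86 cells, in M-cDC. Depth and Malat1 moved with these levels, and their part in them was not tested. Cluster 18, unnamed and led by Lyz2 and Nid1, was high in Bcl6, at 90.0 CPM in L-cDC and 90.9 in M-cDC, and in Spi1, at 589 CPM in L-cDC and 493 in M-cDC.

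**Figure D4:**
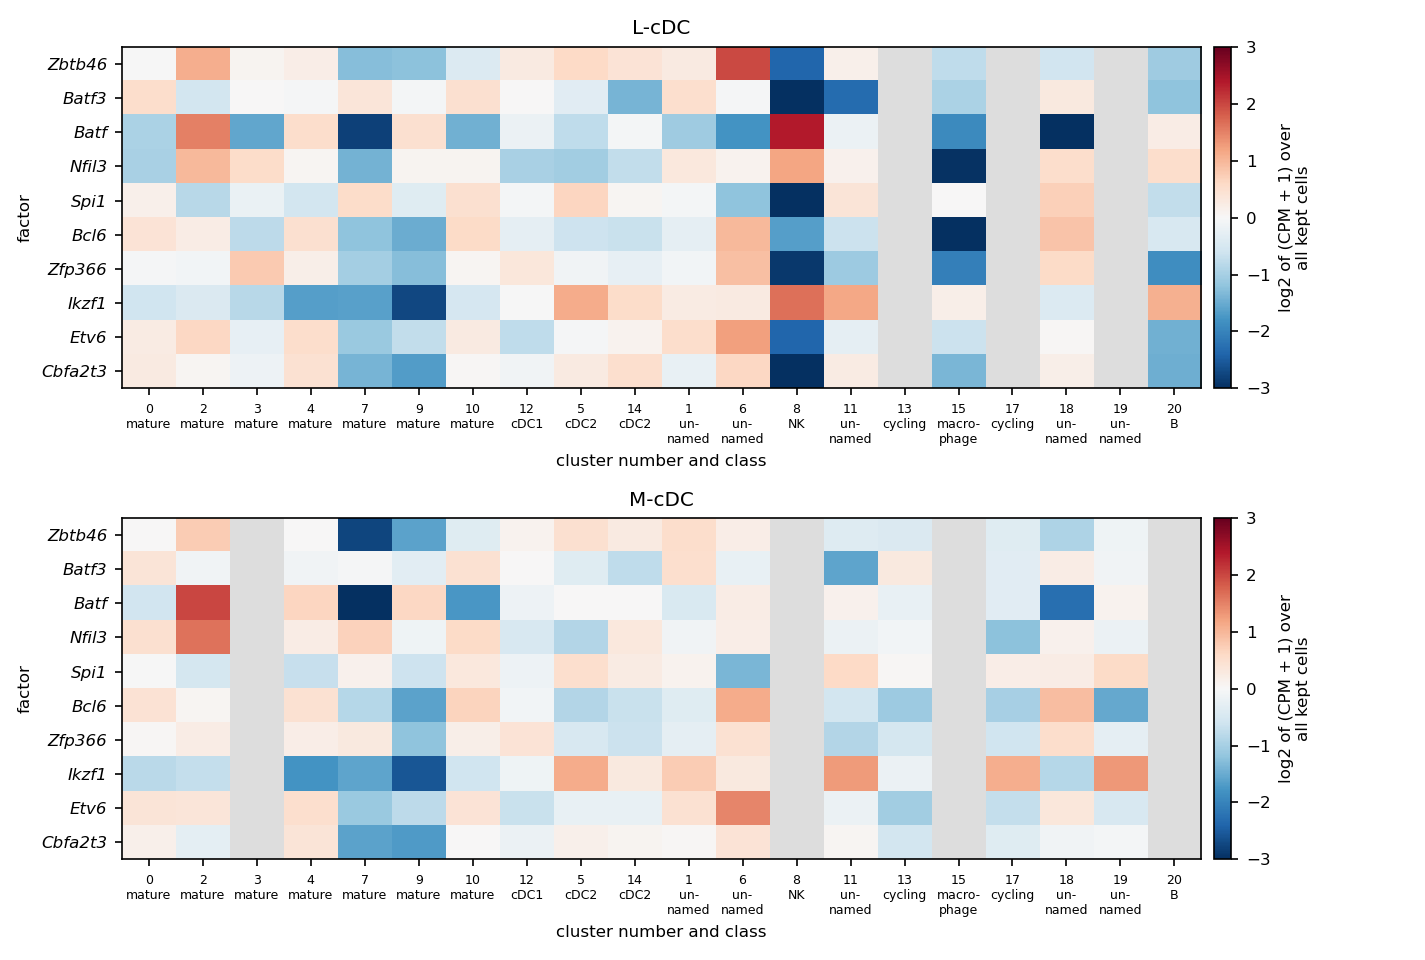
Log2 of (CPM + 1) of each factor in a cluster over the same in all kept cells of the library, L-cDC above M-cDC; columns are clusters of at least 50 cells with their class, colours stop at 3 in either direction, and grey columns had fewer cells in that library. Batf stands out in NK-like cells (cluster 8, 104 CPM in L-cDC), and clusters 7 and 9 are blue for Zbtb46, Bcl6, Ikzf1, Etv6 and Cbfa2t3 in both panels.

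Clusters 7 and 9 of the mature class had little Malat1, 2886 CPM in L-cDC (379 cells) and 2085 CPM in M-cDC (496 cells), against 94559 CPM in L-cDC and 107047 in M-cDC in the other mature cells. In these low-Malat1 cells 6 of 9 considered factors were lower by 1.5-fold in L-cDC, where 44.7% of all considered genes were, and 6 of 9 were in M-cDC, where 46.0% of genes were. They were the same factors in both libraries: Zbtb46, Bcl6, Zfp366, Ikzf1, Etv6 and Cbfa2t3. For Zfp366 in M-cDC this held for cluster 9, at 26.7 CPM, and not for cluster 7, at 77.4 CPM (51.0 to 113) against 70.7 CPM in other mature M-cDC cells. Cbfa2t3 was at 114 CPM in low-Malat1 and 397 CPM in other mature L-cDC cells, and at 114 CPM and 435 CPM in M-cDC. The ratio was 0.288 (0.25 to 0.329) in L-cDC and 0.262 (0.233 to 0.294) in M-cDC. Bcl6 was at 18.2 CPM in low-Malat1 and 61.1 CPM in other mature L-cDC cells, and at 16.4 CPM and 67.6 CPM in M-cDC. Spi1, by contrast, was at 348 CPM in low-Malat1 and 358 CPM in other mature L-cDC cells, and at 299 CPM and 365 CPM in M-cDC, and Batf3 at 237 CPM and 270 CPM in L-cDC, and at 206 CPM and 284 CPM in M-cDC.

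The considered factors that stayed within 1.5-fold in low-Malat1 cells had shorter genes than 5 of the 6 that were lower. Batf3, Batf and Spi1 span 11.1 to 33.4 kb, and the 6 span 23.8 kb (Bcl6) to 234 kb (Etv6). Over all considered genes the median log2 ratio was lower with each longer span class, 0.16 below 10 kb, -0.24 at 10 to 25 kb, -0.60 at 25 to 50 kb, -1.03 at 50 to 100 kb and -1.33 above 100 kb in L-cDC. In M-cDC these medians were 0.24, -0.21, -0.69, -1.13 and -1.50. Bcl6 stood furthest from its span class, at a log2 ratio of -1.75 in L-cDC and -2.05 in M-cDC. Low-Malat1 cells were also shallower, with a median of 5101 UMIs against 8993 in other mature L-cDC cells and of 5229.5 against 7548 in M-cDC. The part of Malat1, depth and gene span in these values was not tested. Without these clusters, the mature over cDC1-like ratio of Bcl6 in M-cDC was 1.5, and 3 of 9 factors passed 1.5-fold there, beside 63.0% of all considered genes. Over cDC2-like cells in M-cDC, 6 of 9 factors passed without these clusters, beside 59.3% of genes. Etv6 then passed, at 1.60 (1.47 to 1.74), and Zbtb46 no longer did, at 0.716 (0.636 to 0.807).

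**Figure D5:**
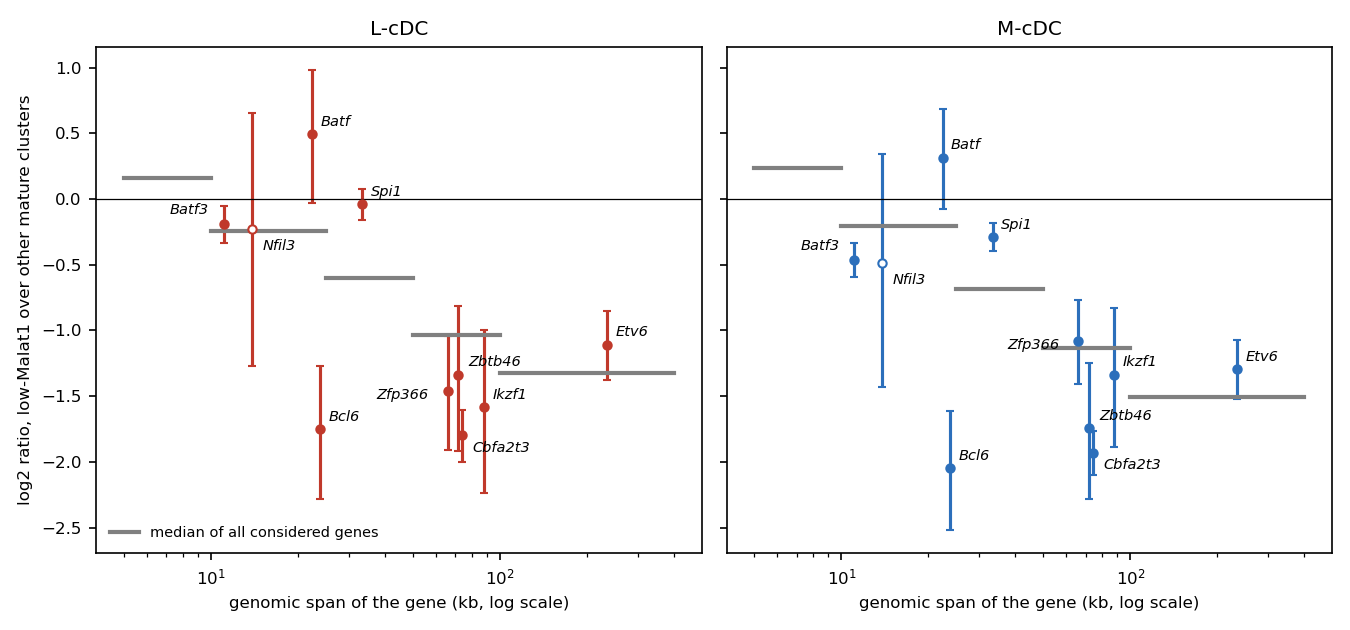
Log2 ratio of low-Malat1 over other mature cells (y axis) against the genomic span of each factor (x axis, log scale), L-cDC left and M-cDC right, with exact conditional 95% intervals; grey bars are medians of all considered genes per span class, and the open circle is Nfil3, below the minimum level. Bcl6, with a span of 23.8 kb, lies at -1.75 in L-cDC and -2.05 in M-cDC, below the grey bar of its span class.

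Some factors varied together across clusters. Over 36 points, each a cluster in a library, Zbtb46 and Cbfa2t3 had a Pearson correlation of 0.84 in log2(CPM + 1), Etv6 and Cbfa2t3 one of 0.80, and Zfp366 and Cbfa2t3 one of 0.79. The points share libraries and clusters that differ in depth and Malat1, and Malat1 itself correlated with Etv6 at 0.72, with Bcl6 at 0.61 and with Zbtb46 at 0.57. They also include the NK-like, B-like and macrophage-like clusters. The NK-like L-cDC point was the lowest for Spi1, at 39.1 CPM, and the highest for Ikzf1, at 211 CPM. The correlations are therefore not those of dendritic clusters alone, which were not computed. Among 8368 genes, the closest to Ikzf1 were Slc38a1 (0.94), Eml4 (0.92) and Runx3 (0.92). Closest to Cbfa2t3 were Flt3 (0.90), Rassf4 (0.84) and Zbtb46 (0.84), and to Spi1 the MHC class II genes Cd74 (0.86), H2-Aa (0.81) and H2-Eb1 (0.81). For Batf3 they were Irf5 (0.78), Mpzl2 (0.77) and Phf11a (0.76), for Zbtb46 after Cbfa2t3 Rbak (0.82) and Hmbox1 (0.80), and for Bcl6 Nf1 (0.87), Fbrs (0.86) and Papolg (0.85). For Etv6 they were Tmem168 (0.90), Lrrk1 (0.89) and Dapp1 (0.89), and for Zfp366 Lipe (0.83), Cbfa2t3 (0.79) and Arhgap5 (0.77). The sparse factors had weaker partners, Dph5 (0.73), Hsph1 (0.70) and Cs (0.70) for Batf and Mmd (0.69), Pip4k2c (0.68) and Dubr (0.68) for Nfil3.

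Of the relatives and partners of the factors, 2 passed 1.5-fold by origin. Between L-cDC and M-cDC no considered gene of the AP-1, ETS or corepressor lists passed 1.5-fold in any class, and the Ikaros list had 1 considered gene in mature cells, which did not pass, and 0 in the other classes. Zbtb7a, of the BTB list, was at 105 CPM in L-cDC and 66.4 in M-cDC among cDC2-like cells (ratio 1.58, 1.31 to 1.90; 1 of 4 considered, beside 8.61% of all genes). Prdm1, which encodes the repressor BLIMP1, was at 21.6 CPM in L-cDC and 12.5 in M-cDC among mature cells (ratio 1.72, 1.48 to 2.01; 1 of 11 considered of the other DC factors, beside 1.79%).

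Between classes some genes of these lists had wider contrasts than any of the 10 factors. In mature over cDC1-like cells, 3 of 5 considered AP-1 genes were lower and 0 higher in each library, where 33.0% of all considered genes were lower in L-cDC and 35.6% in M-cDC. Among the AP-1 genes was Fos, at 13.3 CPM in mature and 275 CPM in cDC1-like L-cDC cells and at 12.4 CPM and 257 CPM in M-cDC. Of the ETS list, 3 of 8 were higher and 1 lower in each library, where 27.0% of all considered genes were higher in L-cDC and 25.8% in M-cDC. It includes the repressor Etv3 at 984 CPM in mature and 60.3 CPM in cDC1-like L-cDC cells and at 978 CPM and 59.0 CPM in M-cDC. Ikzf4, the single considered Ikaros relative, was at 33.2 CPM in mature and 1.17 CPM in cDC1-like L-cDC cells and at 36.9 CPM and 0.0979 CPM in M-cDC, the last from 1 UMI. Of the BTB list 2 of 4 were higher in L-cDC, 2 of 5 were higher in M-cDC, and 0 were lower. The median log2 ratio of the AP-1 list was -0.89 in L-cDC and -0.76 in M-cDC, and that of the ETS list 0.25 in L-cDC and 0.17 in M-cDC, beside -0.11 and -0.16 over all considered genes.

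Runx3, a partner of Cbfb, followed Ikzf1 in its order of classes, at 14.2 CPM in mature, 58.2 CPM in cDC1-like and 152 CPM in cDC2-like L-cDC cells, and at 13.9 CPM, 53.4 CPM and 150 CPM in M-cDC. In mature over cDC2-like cells, 1 of 11 considered corepressors and partners was higher and 6 lower in L-cDC, and 1 was higher and 7 lower in M-cDC, where 36.4% of all considered genes were lower in L-cDC and 39.3% in M-cDC. In cDC1-like over cDC2-like cells, 2 of 14 other DC factors were higher and 10 lower in L-cDC, and 2 were higher and 9 lower in M-cDC, where 25.1% of all considered genes were lower in L-cDC and 19.9% in M-cDC. Among these DC factors, Zeb2, which supports cDC2 and plasmacytoid cells in mice, was at 2.34 CPM in cDC1-like and 327 CPM in cDC2-like L-cDC cells and at 3.13 CPM and 246 CPM in M-cDC. Low-Malat1 cells were also set over other mature cells. Lower in each library were 4 of 4 AP-1, 7 of 7 ETS, 4 of 4 BTB and 1 of 1 Ikaros genes considered. The L-cDC counts were 6 of 8 corepressors and partners and 9 of 11 other DC factors, and the M-cDC counts 7 of 8 and 8 of 10. Of all considered genes, 44.7% were lower in L-cDC cells, and the M-cDC share was 46.0%. Median log2 ratios of the AP-1, ETS and BTB lists were -1.95, -1.25 and -2.16 in L-cDC, beside -0.43 over all genes. The M-cDC medians were -2.11, -1.48 and -2.46, beside -0.44.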

How the data were processed

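Gene expression was measured in single cells of 2 libraries, 1 of L-cDC and 1 of M-cDC, prepared with a 3′ v3.1 droplet kit. The authors deposited UMI counts per gene and barcode made with Cell Ranger 6.1.2, per the file headers, with gene names and barcodes in other deposited tables. The genome was GRCm38 (mm10), per the submitters' processing notes. The annotation release, and whether intronic reads were counted, are not given in the sources used here.

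Cells with at least 500 genes and at most 10% mitochondrial UMIs were kept. Doublet-like cells were removed with Scrublet (expected rate 0.08). Its automatic thresholds were 0.635 for L-cDC and 0.258 for M-cDC, and 0.258 was used for both after these were seen. Counts were scaled to 10000 per cell and logged, and 2000 variable genes without the 10 factors, 30 principal components and 15 neighbours went into Leiden clustering (resolution 1.0, seed 1), with Python 3.11.15, scanpy 1.11.5, igraph 0.11.9, numpy 2.4.6, scipy 1.17.1, pandas 2.3.3 and matplotlib 3.10.9. A cluster was named "-like" from marker lists where its score reached 0.3 with a margin of 0.25, 3 or more markers reached 10 CPM, and its top 10 genes did not go against the name. These naming thresholds were revised after the clusters were seen, so a difference from the study's own cell types may come from the rebuilt names. Mature clusters under 10000 CPM of Malat1 were called low-Malat1, a split made after seeing the data.

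UMIs were summed per class and library. Ratios have exact conditional binomial intervals, CPM exact Poisson intervals and shares exact Clopper-Pearson intervals, all at 95%. Genes with 20 CPM in the higher sum and 50 UMIs over both were considered, and 1.5-fold was the size rule. Likeness across clusters used clusters of at least 20 cells in a library and log2(CPM + 1), and the 3 most alike genes were named, leaving out unnamed gene models, sex-linked genes and immunoglobulin, T cell receptor, haemoglobin, mitochondrial and ribosomal protein genes. Companion lists (AP-1, ETS, Ikaros and BTB relatives, corepressors and partners, other DC factors) named up to 2 considered genes furthest from a ratio of 1 per list and comparison, where the interval left out 1, and the text gives examples of these. The factors and lists were chosen with earlier results of these data known. Simulated counts were drawn from the Poisson model that the intervals assume, so they do not measure spread between cells or libraries. On them the intervals held the true ratio for 96.1% of 5320 genes in the cDC2-like comparison of L-cDC with M-cDC. Of 200 genes with a set change of 2-fold up or down, 96.0% were recovered at 1.5-fold. Recovery of smaller changes was not measured.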

Additional observations from a re-analysis of the deposited data

Results flagged for a closer look

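The following values were singled out by rule. For Etv6 and Cbfa2t3, L-cDC lay above M-cDC in cDC2-like cells and below it in mature cells, and the difference of the log2 ratios between the classes was 0.415 for Etv6 and 0.244 for Cbfa2t3. Inside clusters 5, 14, 0, 4 and 10 the Etv6 ratio was 1.14, 1.25, 0.908, 1.02 and 0.905. Each interval held 1, and in all but cluster 4 the ratio lay on the same side of 1 as its class. Cbfa2t3 was at 414 CPM in L-cDC and 413 in M-cDC in cluster 5, and at 488 CPM and 393 CPM in cluster 14. Mature cluster 3, nearly all L-cDC, had 100 CPM of Etv6 and 313 CPM of Cbfa2t3, below the L-cDC mature class. With 1 library per group the differences between classes were not tested, nor was the part of the mix of clusters.

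Other values came from cells outside the compared classes. In the NK-like cells of cluster 8, Batf stood at 104 CPM in L-cDC. In the unnamed, Malat1-rich and shallow cluster 6, Etv6 stood at 280 CPM in L-cDC and 329 in M-cDC, while Zbtb46 stood at 154 CPM in L-cDC.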

How the results depend on the processing

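Over 15 alternatives listed at the start and 3 added after seeing the data, 152 counts of factors past 1.5-fold stayed within 1.5 times the value reported and 10 did not. Mature over cDC2-like cells in M-cDC gave 3, against 6, when the minimum was 200 genes per cell, when doublet-like cells stayed in, at Leiden resolution 0.5 and with cells classed one by one. L-cDC over M-cDC in cDC2-like cells gave 1, against 0, at Leiden resolution 2.0 (Batf3 lower), with each library clustered alone (Zbtb46 lower) and with cells thinned to 3000 UMIs (Bcl6 higher). L-cDC over M-cDC in mature cells gave 1, against 0, with cells classed one by one and with cells weighted equally (Batf lower in both). The cDC1-like over cDC2-like count in L-cDC was 5, against 3, with each library clustered alone. The cause was not tested. Of the log2 ratios of single factors, 1518 stayed inside the counting interval of the value reported and 102 did not, and none that passed 1.5-fold changed sign.

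No paired analysis was possible because each group is 1 library, and leaving out a library was not possible either. Depth limits the sparse factors most: Nfil3 rests on 5 UMIs in cDC2-like L-cDC cells.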
